A study of Mus musculus with 20 samples.

Results

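Small nucleolar RNA (snoRNA) genes were taken as the genes whose symbol begins with Snora or Snord followed by a number and that appear in at least 1 of the 4 chromatin RNA lists. This rule found 6 of the 22332 genes listed in any of those libraries, and all 6 were listed in all 4. Snord13, Snord118 and Snord104 belong to the C/D type and Snora17, Snora57 and Snora43 to the H/ACA type, as their symbols state. The mouse samples were embryonic stem cells (ESC) and cardiomyocyte cultures (CM) derived from them by way of embryoid bodies, strain C57BL/6, each either WT or Mettl3-KO (here KO). The 4 groups, written ESC WT, ESC KO, CM WT, CM KO and given in this order wherever 4 values follow each other, received no treatment, and the labels do not say which part of Mettl3 was deleted or how many clones were used. Mettl3 encodes the catalytic subunit of the enzyme complex that places N6-methyladenosine (m6A) on nascent RNA. RNA bound to chromatin was sequenced in 1 library per group (ChrRNA-seq), m6A was mapped on such RNA in 1 sample per group, and accessible chromatin was mapped by ATAC-seq in 3 libraries per group.

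snoRNAs are short, stable nuclear RNAs that guide the modification or cleavage of ribosomal RNA and other RNAs. C/D snoRNAs are bound by fibrillarin and mostly guide ribose methylation, and H/ACA snoRNAs are bound by dyskerin and mostly guide the conversion of uridine to pseudouridine. Many are cut out of introns of host genes whose promoters often start within a run of pyrimidines, while a few have promoters of their own. Snord118, also called U8, acts in the processing of the precursor of the large-subunit ribosomal RNAs. Snord13, also called U13, assists the acetylation of a cytidine in the small-subunit ribosomal RNA. Both are known to be transcribed independently.

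The positions are from RefSeq annotation of GRCm38.p6, the patch release of build mm10. Snord13 lies at chr8:31149861-31149958, Snord118 at chr11:69073426-69073562 and Snord104 at chr11:106500991-106501063. Snora17 lies at chr2:26639190-26639321, Snora43 at chr2:26637847-26637985 and Snora57 at chr19:8888536-8888685. Snora17 and Snora43 both lie inside Snhg7, a long noncoding RNA gene at chr2:26637176-26640244, with 1204 bases between them. Snord104 lies inside Gm36220, a noncoding gene at chr11:106500915-106501211. Snora57 lies inside the noncoding gene 5730408K05Rik at chr19:8888387-8888770 and also within the span of the protein-coding gene Lbhd1 at chr19:8883878-8890759. Snord13 and Snord118 lie inside no other annotated gene. Their nearest neighbours were Tti2, which encodes a subunit of a chaperone complex for large kinases, at 357 bases, and Tmem107, which encodes a ciliary membrane protein, at 132 bases.

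The sequence tables held none of the 6 snoRNAs as an entry, but the promoter window of the gene next to Snora57 covers the last 53 bases of its span in genome coordinates. That stretch, chr19:8888633-8888685, is shown on the plus strand because it is the only sequence of any of the 6 genes in the tables, and the strand of Snora57 itself was not given there. Its capitals mark a pair of 7-base arms that are the reverse complement of each other, separated by 6 bases, and 67.9% of the 53 bases were G or C.
Snora57: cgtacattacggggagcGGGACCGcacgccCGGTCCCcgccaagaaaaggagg

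The promoter windows of the 3 noncoding genes that hold Snora17 and Snora43, Snord104 and Snora57 are shown because accessible chromatin was called over them in the ATAC-seq libraries described below. Each window has 300 bases, 250 before the annotated start and 50 from it onward, read along the strand of the gene. Capitals mark CACGTG, the E-box bound by Myc family factors, and TATAAA, one form of the TATA motif, on either strand.
Snhg7, chr2:26640195-26640494, minus strand: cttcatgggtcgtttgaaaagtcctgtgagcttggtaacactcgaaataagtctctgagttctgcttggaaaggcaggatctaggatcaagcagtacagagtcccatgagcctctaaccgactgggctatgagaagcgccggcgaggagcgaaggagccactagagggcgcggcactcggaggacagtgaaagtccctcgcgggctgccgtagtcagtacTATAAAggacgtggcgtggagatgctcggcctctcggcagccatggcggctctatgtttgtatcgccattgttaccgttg
Gm36220, chr11:106500665-106500964, plus strand: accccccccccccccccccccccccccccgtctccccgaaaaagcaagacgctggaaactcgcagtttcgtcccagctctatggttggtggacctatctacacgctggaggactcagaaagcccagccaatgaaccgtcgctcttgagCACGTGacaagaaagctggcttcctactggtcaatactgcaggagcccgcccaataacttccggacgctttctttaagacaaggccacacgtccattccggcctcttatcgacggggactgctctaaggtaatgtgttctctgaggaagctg
5730408K05Rik, chr19:8888721-8889020, minus strand: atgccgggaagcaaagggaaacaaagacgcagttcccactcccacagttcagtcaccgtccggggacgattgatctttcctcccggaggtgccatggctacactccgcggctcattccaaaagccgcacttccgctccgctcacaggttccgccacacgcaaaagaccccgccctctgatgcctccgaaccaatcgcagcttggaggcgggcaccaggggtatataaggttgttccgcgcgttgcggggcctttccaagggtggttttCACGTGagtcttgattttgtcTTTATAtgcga

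The Snhg7 window held TATAAA beginning 30 bases before its start, the Gm36220 window held CACGTG beginning more than 100 bases before its start, at base 149 of the window, and the 5730408K05Rik window held CACGTG 18 bases past its start and TATAAA on the other strand 39 bases past it. Among 32817 RefSeq promoter windows of the same length, 7.15% held CACGTG and 13.6% held TATAAA. In all 3 windows the annotated start base lay in an unbroken run of pyrimidines, of 6 bases in Snhg7 (cctctc), 6 in Gm36220 (cctctt) and 7 in 5730408K05Rik (cctttcc). A run of at least 5 over the start base was found in 10.1% of all windows. Only these exact letters were searched. The 5730408K05Rik window also holds tatataa, a near match to TATAAA, on its own strand before its start, and this is not marked. These matches describe the letters of the windows only.

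The ChrRNA-seq values are read densities scaled to gene length and to the mapped reads of the library (RPKM), and whole read numbers were recovered from them. The libraries held from 27974123 mapped reads in ESC WT to 29844421 in CM KO, and 18428 to 19733 genes were listed in each. Mettl3 itself was at 1.73, 1.28, 1.18 and 1.07 RPKM, which checks no label because the deleted part is not given. A list of 8 ESC markers, 7 of them listed, summed to 65.7, 62.5, 8.22 and 14.2 RPKM. The 7 cardiomyocyte markers summed to 0.696, 0.563, 7.48 and 0.474 RPKM, of which Ttn made up most in the ESC libraries. Without Ttn the other 6 summed to 0.0550, 0.0722, 5.29 and 0.334 RPKM, so the CM KO library lay above the ESC libraries and far below CM WT. Markers of other cells were present in both CM libraries, with erythroid sums of 40.6 in CM WT and 45.0 in CM KO, fibroblast sums of 19.7 and 5.12, and endoderm sums of 13.3 and 5.10 RPKM. The part of this cell mixture in the values below was not tested, and in such bulk samples fewer cells of a type and less RNA per cell cannot be told apart.

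All 6 snoRNA genes followed one order of RPKM, highest in ESC KO, then ESC WT, then CM KO, and lowest in CM WT. The same order was seen in 659 of 6055 genes listed in all 4 libraries with at least 1 RPKM in one (10.9%), and in 55 of 146 genes with at least 100 RPKM in one (37.7%). Not every step was beyond counting error, as Snora43 had a ratio of 1.01 (0.933 to 1.09) in ESC KO against ESC WT. The order holds for RPKM as deposited. With libraries scaled to a median log2 ratio of 0, Snord104 and Snord118 lost it, at 0.17 and 0.08 in CM WT against ESC WT. The reads of the 6 genes made up 1.04% and 1.24% of mapped reads in ESC WT and ESC KO, and 0.722% and 0.899% in CM WT and CM KO. With 1 library per group these values compare libraries, not conditions. The intervals given here and below cover counting error only. Those of ratios are 95% Clopper-Pearson intervals, and those of a ratio divided by another are 95% normal approximations on the log scale.

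Snord13 was at 40353 RPKM in ESC WT (117399 reads) and 46308 in ESC KO (135309 reads), and at 23678 in CM WT (72430 reads) and 32238 in CM KO (100061 reads). It was the gene with the highest RPKM of all listed genes in 3 libraries and the fourth in CM WT (rank 4). Snord118 was at 30428, 36008, 24105 and 28121 RPKM, from 95716 to 136574 reads, and its highest level was 1.49 times its lowest, the narrowest range of the 6. Snord104, a C/D snoRNA of the guide type, was at 18363, 25225, 15478 and 16835 RPKM and stood apart by its level in ESC KO, with the other 3 libraries close together. The 3 C/D genes thus all lay at 15478 RPKM or more and among the 6 genes of highest RPKM in every library.

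The H/ACA genes were lower and more spread. Snora17 was at 5181 RPKM in ESC WT (19132 reads) and 5722 in ESC KO (21220 reads), and at 2484 in CM WT (9646 reads) and 4045 in CM KO (15934 reads). Snora57 was at 763, 823, 527 and 737 RPKM, from 2292 to 3424 reads, with CM KO close to ESC WT. Snora43 was at 353, 355, 105 and 123 RPKM, from 428 to 1387 reads, so its ESC libraries lay together and well above its CM libraries. Its range of 3.39 times between highest and lowest was the widest of the 6. The 2 snoRNAs of Snhg7 did not keep a fixed proportion, since Snora17 had 14.7 and 16.1 times the RPKM of Snora43 in ESC WT and ESC KO, and 23.7 and 33.0 times in CM WT and CM KO.

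**Figure D1:**
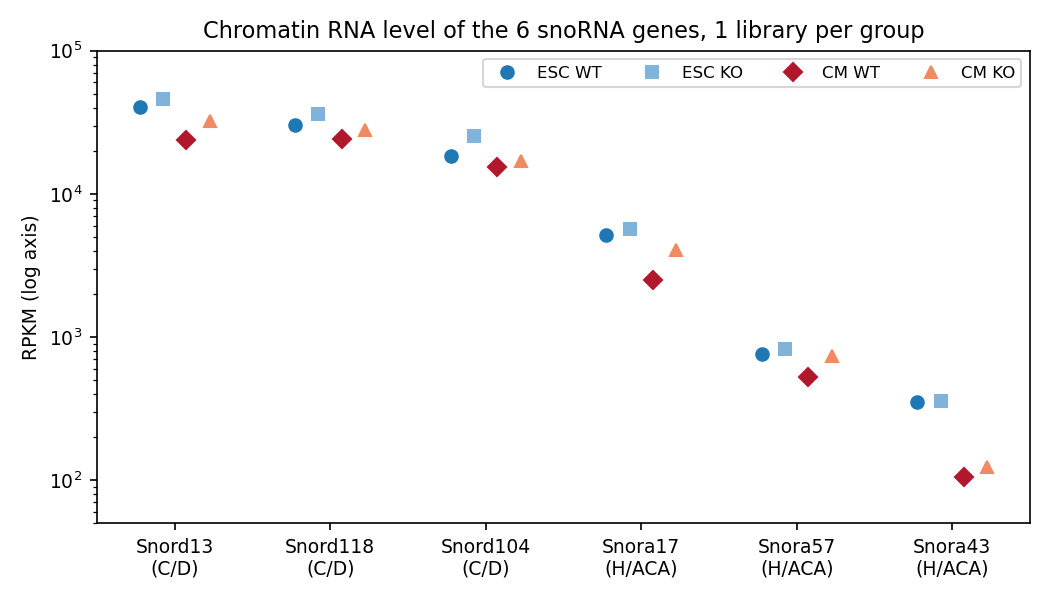
RPKM of the 6 snoRNA genes on a log axis, with 1 point for each of the 4 ChrRNA-seq libraries and no replicates. The 3 C/D genes lie at 15478 RPKM or more and the 3 H/ACA genes at 5722 or less in every library, and Snora43 shows the widest gap between ESC and CM libraries.

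The first comparison asked how snoRNA on chromatin differed between WT cardiomyocyte cultures and WT stem cells. All 6 genes were lower in CM WT, as were 4060 of the 5865 genes at 1 RPKM or more. Of the 137 genes at 100 RPKM or more, 107 were lower. Snora43 was at 0.297 times its ESC WT level (interval 0.266 to 0.331), Snora17 at 0.480 (0.468 to 0.491) and Snord13 at 0.587 (0.581 to 0.592). Snora57 was at 0.690 (0.654 to 0.729), Snord118 at 0.792 (0.785 to 0.799) and Snord104 at 0.843 (0.830 to 0.856). On log2(RPKM + 1), Snora17 and Snora43 were lower by at least 2-fold and none was higher. Of the 5865 genes at 1 RPKM or more in at least one library of the pair, 6.50% were lower by that much and 4.60% higher. The median log2 ratio of the 6 was -0.65, against -0.25 for all those genes (-0.42 without the added 1, which pulls genes of low RPKM toward 0 but not the members) and -0.74 for the 137 genes at 100 RPKM or more in at least one library of the pair, of which 29.2% were lower and 6.57% higher by at least 2-fold. Other genes under 300 bases at 1 RPKM or more, 345 in all, had a median of 0.03, with 15.7% lower and 14.5% higher. The 56 such short genes at 100 RPKM or more had a median of -0.44, with 14 lower and 4 higher by at least 2-fold. The members' median of -0.65 thus lay between this -0.44 and the -0.74 of the 137 genes, which include the members. When the libraries were scaled to a median log2 ratio of 0 over all genes, a shift of 0.42, Snord104 and Snord118 turned to slightly higher in CM WT, at log2 ratios of 0.17 and 0.08, Snora17 no longer reached 2-fold (-0.64), and Snora43 stayed beyond it (-1.33).

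In the KO cells all 6 genes were again lower in CM than in ESC, and they stayed lower after scaling, by 0.10 to 1.47 on the log2 scale. Before scaling, 2968 of all 5558 genes at 1 RPKM or more were lower, and 117 of the 145 at 100 RPKM or more. Snora43 was at 0.345 times its ESC KO level (0.311 to 0.383) and was the only member past 2-fold, where 3.67% of 5558 genes were lower and 5.0% higher. The other 5 lay between 0.667 for Snord104 (0.658 to 0.677) and 0.895 for Snora57 (0.853 to 0.939). Snora17 was at 0.707 (0.692 to 0.722), Snord13 at 0.696 (0.690 to 0.702) and Snord118 at 0.781 (0.775 to 0.787). The median log2 ratio of the 6 was -0.51, against -0.04 for all genes (-0.06 without the added 1) and -0.57 for the 145 genes with at least 100 RPKM, 17.2% of which were lower and 5.52% higher by at least 2-fold. The 369 other genes under 300 bases had a median of -0.25, with 20.1% lower and 17.1% higher. The 62 such short genes at 100 RPKM or more had a median of -0.45, with 12 lower and 6 higher by at least 2-fold.

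The other question of the design was how the genes differed between KO and WT cells of one kind. In ESC, 5 of the 6 were higher in the KO library beyond counting error. Of 5240 genes at 1 RPKM or more, 30.6% were higher by any amount. No member reached 2-fold, where 1.49% of those genes were higher and 0.649% lower. Snord104 had a ratio of 1.37 (1.36 to 1.39), Snord118 of 1.18 (1.17 to 1.19), Snord13 of 1.15 (1.14 to 1.16), Snora17 of 1.10 (1.08 to 1.13) and Snora57 of 1.08 (1.03 to 1.13). Snora43 had a ratio of 1.01, and its interval of 0.933 to 1.09 included 1. The median log2 ratio was 0.17, against -0.09 for all genes (-0.15 without the added 1) and 0.18 for the 140 genes with at least 100 RPKM, of which 70.0% were higher in KO and 4.29% were higher by at least 2-fold, with 0% lower. The 349 other genes under 300 bases had a median of 0.27, with 14.9% higher and 7.16% lower by 2-fold. The 57 such short genes at 100 RPKM or more had a median of 0.17, with 3 higher and 0 lower by 2-fold. All 6 members stayed higher after scaling, at log2 ratios of 0.16 to 0.61.

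In CM, all 6 were higher in the KO library, as were 72.6% of 5170 genes at 1 RPKM or more. No member reached 2-fold, where 2.11% of those genes were higher and 1.37% lower. Snora17 had a ratio of 1.63 (1.59 to 1.67), Snora57 of 1.40 (1.33 to 1.48) and Snord13 of 1.36 (1.35 to 1.37). Snora43 and Snord118 both had 1.17, with intervals of 1.03 to 1.34 and 1.16 to 1.18, and Snord104 had 1.09 (1.07 to 1.10). The median log2 ratio was 0.34, against 0.13 for all genes (0.21 without the added 1) and 0.35 for the 127 genes with at least 100 RPKM, of which 77.2% were higher in KO, 7.09% by at least 2-fold, and 1.57% were lower by that much. The 351 other genes under 300 bases had a median of 0.06, with 17.1% higher and 9.40% lower by 2-fold. The 53 such short genes at 100 RPKM or more had a median of 0.27, with 4 higher and 0 lower by 2-fold. After scaling, a shift of 0.21, Snord104 turned to slightly lower in CM KO (-0.09), Snord118 and Snora43 came to 0.02, and Snora17 stayed at 0.50.

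The order of the members differed between the KO to WT comparisons in ESC and in CM, which share no library. Snord104 had the highest ratio in ESC and the lowest in CM, and its CM ratio divided by its ESC ratio was 0.792 (0.776 to 0.808). For Snora17 this quotient was 1.47 (1.43 to 1.52), for Snora57 1.30 (1.21 to 1.39), for Snord13 1.19 (1.17 to 1.20), for Snora43 1.16 (1.00 to 1.35) and for Snord118 0.986 (0.974 to 0.997). The median quotient was 1.28 over 6055 genes and 1.17 over the 146 genes with at least 100 RPKM in any library, so the interval of Snora17 lay above both and those of Snord104 and Snord118 below both. These intervals again hold counting error alone, and with 1 library per group the difference between the cell types could not be tested.

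**Figure D2:**
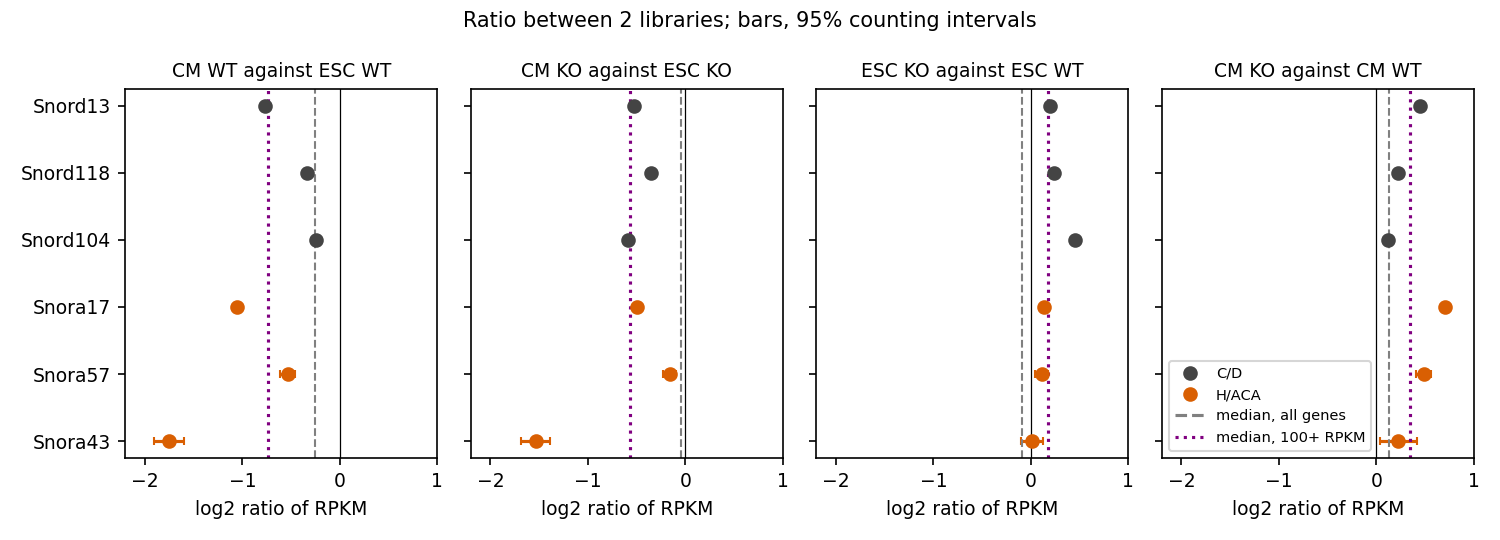
Log2 ratio of RPKM between 2 libraries for each snoRNA gene in the 4 comparisons, with bars for the 95% counting interval, a dashed line at the median of all genes at 1 RPKM or more in at least one library of the pair and a dotted line at that of genes at 100 RPKM or more. The points are plain RPKM ratios, but both lines are medians on log2(RPKM + 1). In CM WT against ESC WT the dashed line is thus at -0.25, where the median without the added 1 was -0.42. In that panel every point lies left of 0 and Snora43 lies farthest, at -1.75, and in both KO to WT panels every point lies to the right of 0, by 0.01 to 0.70.

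Between the classes, the 3 H/ACA genes had a median log2 ratio of -1.06 and the 3 C/D genes of -0.34 in CM WT against ESC WT, although Snora57, at -0.53, lay within the C/D range of -0.77 to -0.25. In CM KO against ESC KO the medians were -0.50 and -0.52. They were 0.11 and 0.24 in ESC KO against ESC WT and 0.48 and 0.22 in CM KO against CM WT. The C/D reads were 11.3 and 12.4 times the H/ACA reads in ESC WT and ESC KO, and 16.2 and 12.6 times in CM WT and CM KO, so the CM WT library held the smallest H/ACA portion. With 3 genes per class, 2 of them in the same host, a difference between the classes cannot be told apart from differences between these single genes.

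The protein-coding genes around the snoRNAs that had a value were far lower. Snhg7, Gm36220 and 5730408K05Rik could not be matched to an identifier in the lists, so no host level can be set beside Snora17, Snora43 or Snord104. Lbhd1, whose span holds Snora57, was at 1.27, 1.16, 0.512 and 0.802 RPKM, and its ratio was 0.402 in CM WT against ESC WT and 1.57 in CM KO against CM WT, where Snora57 had 0.690 and 1.40. Its counted length of 8896 bases was longer than its RefSeq span of 6882. Mir5136, a microRNA gene 13 bases from Snora57, was at 16.9, 13.6, 5.82 and 10.6 RPKM, from 13 to 36 reads. Tti2, beside Snord13, was at 0.808, 0.811, 0.496 and 0.620 RPKM, with ratios of 0.615 in CM WT against ESC WT and 1.25 in CM KO against CM WT, where Snord13 had 0.587 and 1.36. Tmem107, beside Snord118, had only 22 to 28 reads. Gm22711, annotated as a snoRNA gene 181 bases from Snord104, was at 1818, 2885, 1032 and 2057 RPKM and had a KO to WT ratio of 1.59 in ESC and 1.99 in CM, against 1.37 and 1.09 for Snord104. The closely spaced pair therefore differed beyond counting error in both, and more widely in CM. The ESC intervals were 1.54 to 1.64 for Gm22711 and 1.36 to 1.39 for Snord104, and those in CM 1.92 to 2.07 and 1.07 to 1.10, with 1 library per group.

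Most annotated snoRNA genes were not listed at all. The gene name table held 138 symbols of this form under 141 identifiers, and 132 of the symbols had no value in any library. RefSeq places 124 of those 132 inside another gene, 119 of them inside a gene that was itself listed, while 2 of the 6 listed genes lie inside no other gene and only Snora57 lies inside a gene of the gene name table. Rpl13a, a ribosomal protein gene that holds 4 unlisted snoRNA symbols, was at 1445, 1518, 895 and 927 RPKM. Hspa8, a heat shock protein gene that holds 3, was at 2081, 2265, 939 and 990 RPKM, and Snhg12, a noncoding host gene that holds 4, at 893, 948, 443 and 510. Gas5, a noncoding host that holds Snord47, was at 2395, 3225, 1246 and 2266 RPKM, and Snhg1, which holds Snord22, at 2665, 3216, 1408 and 2340. Snhg14, which holds 18 including the Snord116l series of the imprinted Prader-Willi region, was at 0.121, 0.235, 0.0620 and 0.151 RPKM. How reads over nested genes, or over several copies of one snoRNA, were assigned is not stated in the labels or file headers. Levels of the 6 genes, Snord13, Snord118 and Snora43 in particular, are therefore uncertain where copies exist, and Snora43 is a symbol with 2 identifiers of which 1 was listed.

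The genes of proteins that build and bind snoRNAs were followed at the level of chromatin RNA through a list of 22, all listed. No protein was measured. The plain ratios below take in all 22 without a filter, while the values for all genes beside them are limited to genes at 1 RPKM or more. Most lay near 1 RPKM, where log2(RPKM + 1) understates a difference, so plain RPKM ratios come first. In CM WT against ESC WT, 21 of the 22 were lower and 12 of them by at least 2-fold, with a median ratio of 0.481. Over the 5763 genes at 1 RPKM or more, 69.8% were lower and 19.3% by at least 2-fold, with a median ratio of 0.747. Pih1d1, a subunit of the complex that assembles snoRNPs, was the exception at 1.64 (1.29 to 2.10). In CM KO against ESC KO, 21 were lower with a median of 0.770, against 53.7% of all genes and a median of 0.961, and Coil, the scaffold protein of Cajal bodies, was the only one past 2-fold, at 0.392 (0.354 to 0.434), beside 6.94% of all genes. In ESC KO against ESC WT, 16 were lower with a median of 0.860, where 69.7% of all genes were lower with a median of 0.903, so the list lay near the background. In CM KO against CM WT, 20 were higher with a median of 1.31, where 72.8% of all genes were higher with a median of 1.15, and Nop10 was the only one past 2-fold, at 2.51 (1.90 to 3.35), beside 2.90% of all genes. On log2(RPKM + 1), among those that reached 1 RPKM, 5 of 20 were lower by at least 2-fold in CM WT against ESC WT and none passed it in the other comparisons.

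Among the C/D proteins, Fbl, the ribose methyltransferase fibrillarin, was at 1.43, 1.65, 0.896 and 1.01 RPKM, and Snu13, which binds the C/D fold, at 2.29, 1.73, 0.904 and 1.08. Nop58 was at 51.9, 54.6, 21.4 and 42.1 RPKM and Nop56 at 829, 723, 371 and 516, and each of these core proteins' genes holds 2 unlisted snoRNA symbols in its span. Among the H/ACA proteins, Dkc1, the pseudouridine synthase dyskerin, was at 3.61, 3.37, 1.29 and 1.76 RPKM. Its core partners Nop10 and Nhp2 were at 5.93, 4.95, 1.80 and 4.51 and at 4.46, 3.58, 1.59 and 2.46, and Gar1 was at 2.23, 2.31, 1.43 and 1.87. CM WT was the lowest library for all 8 of these core genes. The share of all genes for which CM WT was lowest was not counted, so this is a description only. Of all genes at 1 RPKM or more, 69.8% were lower in CM WT than in ESC WT, and 72.8% were higher in CM KO than in CM WT.

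Other genes that RefSeq annotates as snoRNA but that carry other symbols served as a comparison, 99 in all. Among those at 1 RPKM or more, the KO to WT comparison in ESC had a median log2 ratio of -0.04, with 44.4% of 45 genes higher in KO, and that in CM a median of 0.46, with 65.8% of 38 genes higher. The members had medians of 0.17 and 0.34. At 100 RPKM or more in at least one library of every pair there were 10 such genes, 7 of them in a cluster of 8 listed genes at chr12:109679945-109688125. The KO to WT ratios of these 7 were 0.615 to 0.907 in ESC and 0.566 to 1.07 in CM, with 0 of 7 and 1 of 7 above 1, where all 6 Snora and Snord genes were above 1 in both. The other 3, Gm22711, Gm24613 and Gm25203, were above 1 in both as well, at 1.10 to 1.59 in ESC and 1.59 to 1.99 in CM. Of all genes at 1 RPKM or more, 30.6% were higher in KO in ESC and 72.6% in CM. At 100 RPKM or more these shares were 70.0% and 77.2%. AF357341 of the cluster was at 2141 and 1659 RPKM in ESC WT and ESC KO, and at 2337 and 1816 in CM WT and CM KO. In CM WT against ESC WT the cluster's median ratio was 0.936 and that of the 6 named genes 0.639, and in CM KO against ESC KO the medians were 0.835 and 0.702. The cluster and the named genes thus lay on opposite sides of 1 between KO and WT, except Gm22981 of the cluster, at 1.07 in CM, and, after scaling, AF357428, at a log2 ratio of 0.01 in ESC, and Snord104, at -0.09 in CM. This difference was seen in 1 library per group, was picked out after the values were seen, and was not tested.

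**Figure D3:**
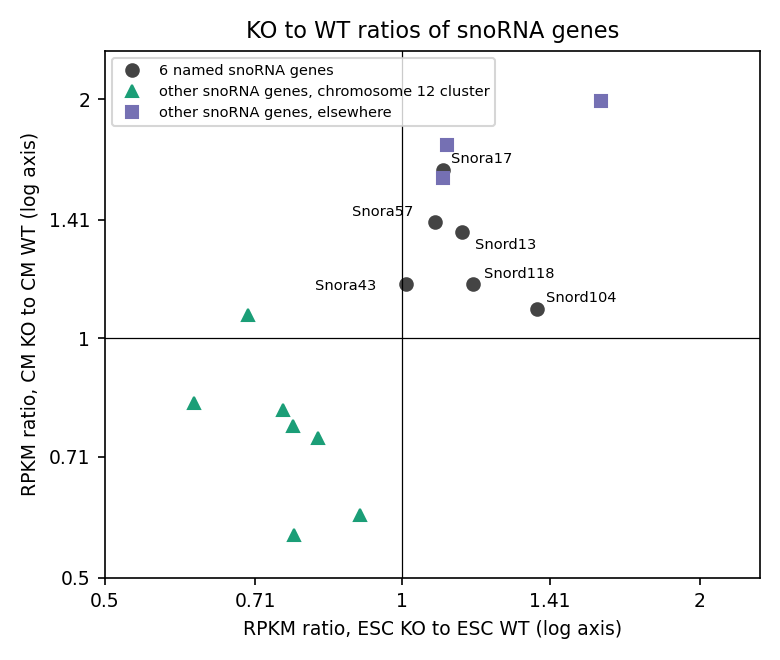
KO to WT ratio of RPKM in ESC (x, log axis) and in CM (y, log axis) for the 6 named snoRNA genes, for 7 genes of the chromosome 12 cluster and for 3 other genes annotated as snoRNA, Gm22711, Gm24613 and Gm25203, all at 100 RPKM or more in at least one library of every pair. The named genes and those 3 lie at ratios above 1 on both axes, and the cluster lies at 0.907 or less in ESC and at 1.07 or less in CM.

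The m6A lists give single positions within genes, each with a motif of 4 bases, and no genome coordinates, so they were matched by gene identifier. They held 16983 and 18076 positions in ESC WT and ESC KO, and 25617 and 13962 in CM WT and CM KO. None of the 6 genes, and none of the 141 identifiers with a Snora or Snord symbol, had a position in any list. Of their 138 symbols, 132 had no RPKM value in any library, so their lack of positions cannot be judged. Of the listed genes in each library, 25.1% to 38.2% had a position, but of other listed genes under 300 bases only 2.0% to 2.82% did, a share at which 0 of 6 is no result about the snoRNA genes. No position was recorded under Gm22711 or Tmem107, and Snhg7, Gm36220 and 5730408K05Rik could not be looked up for the same reason as above. Lbhd1 had 1 position in every list, at 6880 from its start in both ESC lists and at 6843 in both CM lists, which could not be placed relative to Snora57. Tti2 had a position at 1024 in all 4 lists and a second at 1358 in CM WT. Other genes annotated as snoRNA did have positions, Gm24949 at 81 in all 4 lists, Gm25203 at 72 in ESC WT and CM KO, and Gm24826 at 86 in ESC WT, each in a gene of 215 bases. The labels do not say how positions were called, and the ESC KO list was longer than the ESC WT list, so a position is described here as listed, not as Mettl3-dependent.

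ATAC-seq marks open chromatin, where a transposase can insert adapters, and each library had its own list of called intervals, from 70132 to 119307. An interval was found within 1 kb of the snoRNA gene or of an end of the gene that contains it for all 6 members in all 12 libraries. The share of other genes with an interval in such a window was not counted. Finding all 6 is therefore no result about the snoRNA genes. The number of members with an interval was 6.00 ± 0 (SD, n = 3) in each of the 4 groups, and the exact permutation test (two-sided) gave p = 1.00 and an adjusted p of 1.00 in each of the 4 comparisons, where the smallest p that 3 against 3 libraries allow is 0.1. Every library held all 6 members, the most possible, so these counts fixed the outcome of the test and it says nothing about group differences. The labels do not tell separate cultures from repeat libraries of one culture. A test on them could hold only library-to-library spread, technical or not, and that spread was 0 here. Counting only intervals that overlap the snoRNA gene itself, Snord13, Snord118 and Snord104 had one in all 12 libraries, Snora57 in 2 of 3 libraries of ESC WT, ESC KO and CM WT and in 3 of 3 of CM KO, and Snora17 and Snora43 in none.

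The summits lay in nearly fixed places. At Snord13 the summit fell inside the gene in all 12 libraries, 8 to 44 bases from its lower end. At Snord118 it lay 21 to 44 bases past the higher end of the gene, and at Snord104 121 to 144 bases before the lower end. At Snora57 it lay 171 to 207 bases past the higher end. At Snora17 it lay 983 to 1010 bases past the higher end, over the start of Snhg7. Measured from the annotated start along the strand, the summits lay 87 to 60 bases before the start of Snhg7, 68 to 45 before that of Gm36220 and 122 to 86 before that of 5730408K05Rik, within the windows printed above. The authors' fold of the summit over local background was 9.88 to 12.2 at Snord104, 8.36 to 11.0 at Snord13, 6.15 to 8.22 at Snord118, 6.07 to 8.90 at Snora57 and 2.63 to 5.28 at Snora17. The fold at the Snora17 summit was 2.63 to 3.05 in the 6 ESC libraries and 4.04 to 5.28 in the 6 CM libraries, with no overlap, and its place within its own list was 2.81% to 8.90% of intervals below it in ESC and 30.2% to 59.1% in CM. At the other 4 summits the ESC and CM ranges of the fold overlapped. The place within the list also split at Snora57, at 64.7% to 77.8% in ESC and 78.3% to 86.6% in CM. At Snord104, Snord118 and Snord13 the ranges of the place overlapped. The fold is relative to the background of each library and the CM lists were shorter, so these splits are given as a description and were not tested. Snora17 RNA was lower in CM than in ESC in both genotypes. The summit near Snora17 was the lowest of these in every library, and that at Snord104 had 87.7% to 96.8% below it.

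**Figure D4:**
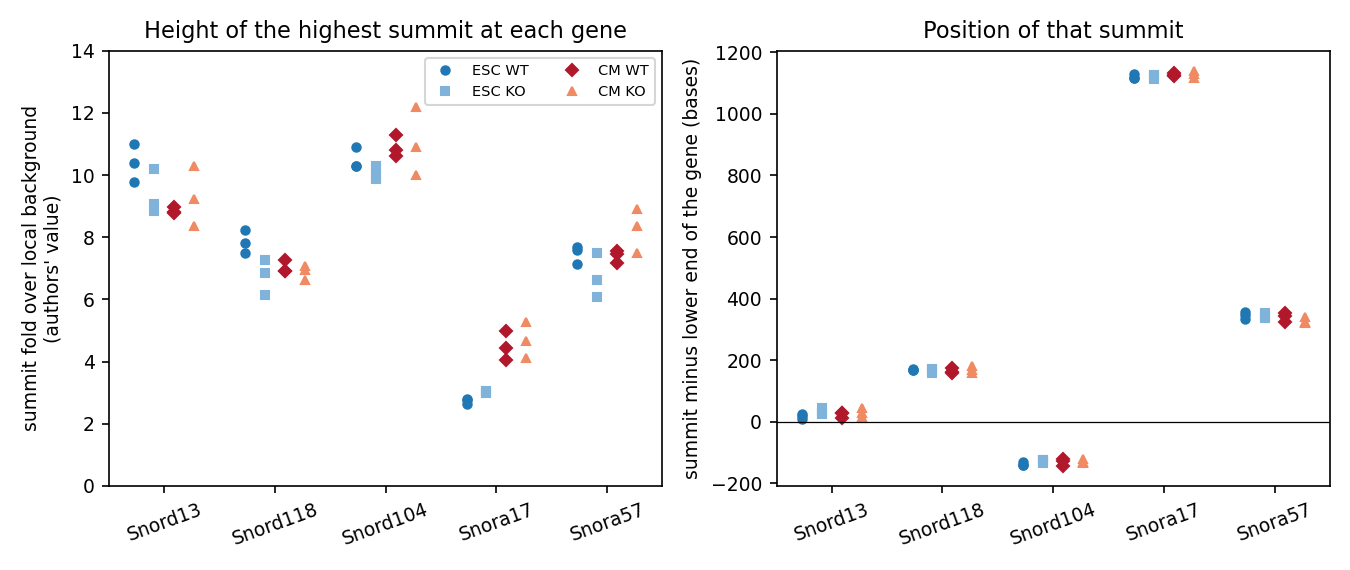
Left, the authors' summit fold over local background, and right, the distance of that summit from the lower end of the snoRNA gene in bases, with 1 point for each of the 3 ATAC-seq libraries in each group. The summit positions of the 12 libraries overlie one another at each gene, from -144 bases at Snord104 to 1141 at Snora17, and the Snora17 summit is the lowest of the 5.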

How the data were processed

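ChrRNA-seq and m6A sequencing had 1 sample per group and ATAC-seq 3. Groups were taken from the sample titles. Per the submitters' processing notes, cutadapt, Bowtie, Picard, MACS2 and HISAT2 were used with build mm10. Their roles and versions, and the treatment of reads that map to several places, are not stated there. The deposited ChrRNA-seq tables give RPKM per Ensembl gene. The deposited ATAC-seq peak lists, 1 per library and in the layout of MACS2, give a score, the summit's fold (a ratio over local background) and −log10 p and q. The deposited m6A lists give a gene identifier, a position and a motif of 4 bases, which carry no measured value. One CM KO ATAC-seq library is labelled as RNA, and its file is a peak list like the others.

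RPKM times gene length times mapped reads gave whole reads (tolerance 0.001). Mapped reads were solved from low values, and the counted length of each gene was taken as the one nearest its RefSeq length that gave whole reads in every library, so wholeness is in part by construction. In 73.6% of 19451 genes that length was within 5% of the RefSeq span, introns included. An unlisted gene was taken as 0. Ratios are of RPKM, and calls are at least 2-fold on log2(RPKM + 1) among genes at 1 RPKM or more in at least one library of the pair. No count test was run, since there is 1 library per group. The comparison with genes of at least 100 RPKM was added after the data were seen. The number of members with an ATAC-seq interval was tested with an exact permutation test and Benjamini-Hochberg adjustment over 4 comparisons. Scripts were tested on simulated data (python 3.11.15, numpy 2.4.6, pandas 2.3.3, scipy 1.17.1).

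The members and lists were chosen with earlier results of these data known. The named members were to be those of highest mean RPKM in each class and those of most extreme ratio, which together took in all 6. A rule to describe hosts with at least 3 listed members named none. Promoter sequences and positions are from RefSeq, GRCm38.p6, where 0 of 6 members and 4 of 4 containing genes had a promoter entry.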

Additional observations from a re-analysis of the deposited data

How the results depend on the processing

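Scaling the libraries to a median log2 ratio of 0 over all genes moved 5 results. Under it the number of members at least 2-fold lower in CM WT than in ESC WT was 1 in place of 2, and their median log2 ratio was -0.23 in place of -0.65. The medians became -0.45 in place of -0.51 in CM KO against ESC KO, 0.32 in place of 0.17 in ESC KO against ESC WT and 0.13 in place of 0.34 in CM KO against CM WT. Another pseudocount (0.1), no filter or a filter of 5 or 100 RPKM, the last chosen after seeing the data, and leaving out unlisted genes could not change these counts, because all 6 genes were listed at 105 RPKM or more in every library, so they say nothing about stability. With the ATAC-seq replicate block, same-numbered libraries paired, the difference in the number of members with an interval was 0 and p = 1.00 in an exact sign-flip test, where 3 pairs cannot go below 0.25. The counts were equal, at all 6 genes, in all libraries, so neither pairing nor leaving out a library could move them, and whether the numbers pair them could not be checked from these values. Leaving out each replicate in turn gave differences of 0 to 0. The 2 alternatives for m6A, a position within 100 bases of a member and an overlap of a larger part of it, were not run because the lists hold no genome coordinates or intervals. Counting only named host genes left 3 members in a host in place of 4. Depth sets little of the uncertainty of the RPKM ratios, which comes down to 1 library per group, and the least counted member, Snora43, had 428 reads in CM WT.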
